A study of Saccharomyces cerevisiae BY4741 with 4 samples.

Results

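Tandem gene pairs are neighbouring genes on the same strand, so that transcription runs from the end of the upstream gene towards the promoter of the downstream gene. They were taken from the systematic names of budding yeast genes, which give the chromosome, the arm, a number counted outward from the centromere and the strand (W or C). A pair is formed by consecutive numbers on one arm with the same strand letter, names without a suffix and a level of histone H3 trimethylated on lysine 4 (H3K4me3) in both strains. The left arm of chromosome IV (YDL) was left out by the rule. This gave 1867 tandem pairs made of 2929 genes, out of 5038 genes with both levels in the table and 4826 outside that arm. The same names gave 985 divergent pairs, which face away from each other, and 1054 convergent pairs, which face each other. No level was used to choose the pairs.

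H3K4me3 is placed by COMPASS, the complex whose catalytic subunit is Set1, which travels with RNA polymerase II early in transcription, so the mark lies over the nucleosomes that follow a promoter. In a compact genome the 5′ nucleosomes of a downstream gene lie close to the 3′ end of the gene before it, and tandem pairs are where a marked promoter region directly follows the end of another transcription unit. Spp1 is the PHD finger subunit of COMPASS, which binds methylated H3K4 and is needed for full trimethylation.

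The wild-type culture was BY4741, a MATa strain with the alleles leu2{delta}0, ura3{delta}0 and his3{delta}1, and the other strain, BY4741-spp1{delta}, carried spp1D::KanMX6, in which a drug resistance cassette replaces SPP1. Both cultures were in YPD, a rich medium with glucose, at an optical density of 0.6, and Schizosaccharomyces pombe cells at 25% by volume were included as a spike-in. Of the 4 libraries of the series, the H3K4me3 library of each strain was used, with 1 library per strain. No difference between strains or genes therefore has a replicate check, no p-value is given, and the read depth is unknown. Every interval below is a 95% interval over pairs or genes taken as independent, which pairs that share a gene are not, and says nothing of replicates.

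The names were checked against the RefSeq annotation. Both genes were annotated in 1824 pairs, and in all 1824 their order along the chromosome was the one the names give. The coding regions overlapped in 11 pairs, and otherwise the gap from the end of the upstream coding region to the start of the downstream one had quartiles of 281 and 596 bases with a median of 396.5. Another annotated gene lay between or across the pair in 231 cases, among them tRNA genes in 71. Consecutive numbers thus mostly, but not always, mark direct neighbours, and 1582 pairs had no overlap and nothing else annotated between them. In the other 43 pairs at least 1 name had no annotated gene.

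The genes of tandem pairs carried the mark at the level of genes in general. Their median level was 2.014 in wild type (interval 2.002 to 2.030) and 0.489 in the deletion strain, and their median log2 ratio (spp1 to wild type) was -1.94 (interval -1.97 to -1.92), or 26.0% of wild type. For all 4826 genes outside YDL the medians were 2.011, 0.492 and -1.93. Of the 2929 genes, 2781 (94.9%) lay under 50% of wild type, against 94.6% of all genes, and 1347 (46.0%) lay under 25%, against 44.9%. None of these genes lay above its wild-type level. On each of these measures the genes of tandem pairs lay near this background, of which they are themselves a large part. The 1897 genes in no tandem pair had medians of 2.002, 0.494 and -1.91 (interval of the log2 ratio -1.94 to -1.88). Of them 94.0% lay under 50% of wild type and 43.2% under 25%.

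The central comparison set the upstream gene against the downstream gene of each pair. In wild type the upstream genes had a median level of 2.0004 and the downstream genes 2.03. The median of the within-pair difference was -0.019 on the log2 scale (interval -0.045 to -0.0009), so the upstream gene of the middle pair carried 98.7% of the level of its neighbour. In the 1312 pairs that share no gene with each other it was -0.0092 (interval -0.040 to 0). The differences themselves were far wider than this offset, with quartiles of -0.30 and 0.23 and a middle 90% from -1.35 to 1.29. The upstream gene was the higher one in 858 pairs and the downstream gene in 981, and 28 pairs had equal levels. Without these 28 the median difference was -0.028 (interval -0.052 to -0.0051). The share with a higher upstream gene was 45.96% (exact binomial interval 43.7% to 48.2%), or 46.7% of the 1839 pairs with unequal levels. In all 3906 neighbouring pairs of any orientation, the gene at the lower coordinate was the higher one in 49.8%. The downstream gene was more often higher in each kind of pair by arm and strand, by 183 to 165 pairs for left arms and W, 181 to 141 for left arms and C, 304 to 278 for right arms and W and 313 to 274 for right arms and C. Of the 29 chromosome arms, 18 had a median below 0, 9 above and 2 at 0. The direction was not the same at all gaps between the genes, as given below.

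In the deletion strain the offset was smaller still. The median levels were 0.484 upstream and 0.488 downstream, and the median within-pair difference was -0.0070 (log2, interval -0.042 to 0). Without the 28 pairs of equal levels the median difference was -0.014 (interval -0.060 to 0.014). The upstream gene was higher in 890 pairs (47.7%), against a background of 49.5%, and the downstream gene in 949. For the log2 ratio of the strains the median difference was 0 (interval -0.015 to 0.034), with 931 pairs higher upstream (49.87%, background 49.1%) and 908 higher downstream. This 0 is the value of the 28 pairs with equal levels, and without them the median was 0.0064 (interval -0.026 to 0.046). The share of the mark that remained without Spp1 was thus as often higher in the upstream as in the downstream gene, to within the interval.

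**Figure D1:**
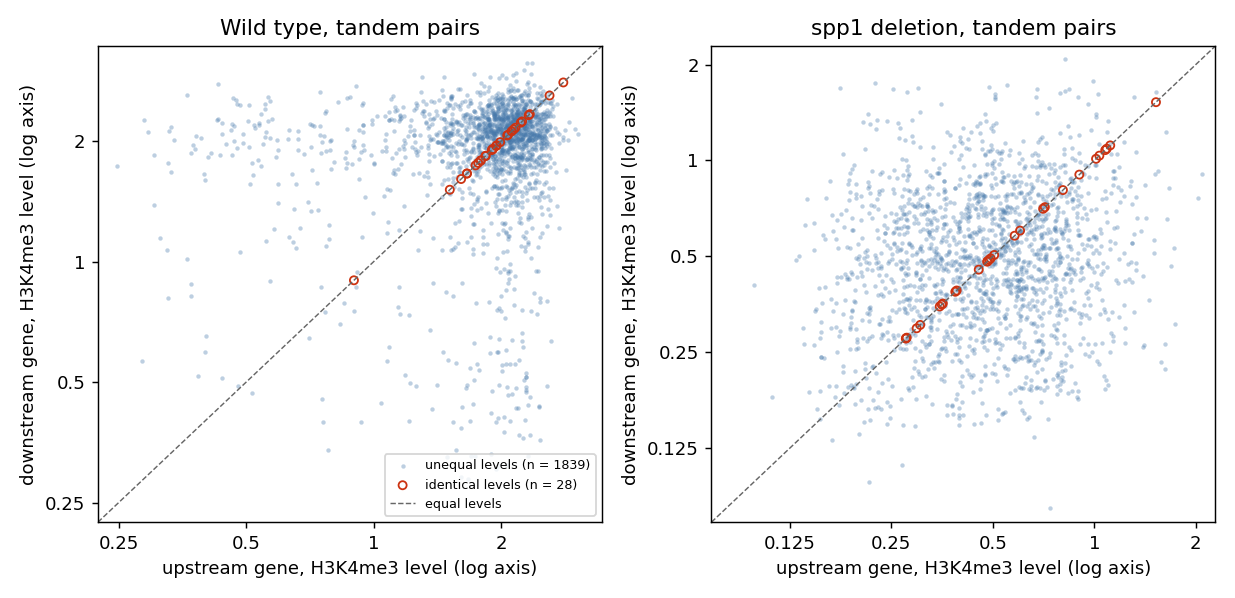
H3K4me3 level of the upstream gene (x axis) and downstream gene (y axis) of 1867 tandem pairs in wild type (left) and in the spp1 deletion strain (right), on log axes. Points lie on both sides of the dashed line of equal levels, with wild-type levels crowded near 2 and arms of low genes along both axes, and the 28 pairs with identical levels are ringed.

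The differences between neighbours were larger than the offset between the sides. In wild type the median size of the difference between the genes of a pair was 0.27 on the log2 scale, or 1.21-fold, and 269 pairs (14.4%) differed over 2-fold, against 13.1% of all neighbouring pairs. In the deletion strain the median size was 0.63, or 1.55-fold, and 562 pairs (30.1%, background 29.5%) differed over 2-fold. The log2 ratio differed within pairs by a median of 0.45, and by over 1 in 288 pairs (15.4%, background 15%). Relative differences between neighbours were thus wider in the library of the deletion strain than in that of wild type, in tandem pairs as in all others. Of the 1839 pairs with unequal levels, 1421 (77.3%, background 76.1%) had the same gene higher in both libraries. Of the 269 pairs that differed over 2-fold in wild type, 264 did (98.1%, background 97.5%).

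Across pairs, the levels of the upstream and downstream gene were only weakly related. The Spearman correlation over the 1867 pairs was 0.10 in wild type, 0.14 in the deletion strain and 0.088 for the log2 ratio. Over the 1839 pairs with unequal levels the values were 0.094, 0.125 and 0.072. These are descriptions across pairs that share libraries and, in runs, genes. Over divergent pairs the same values were 0.25, 0.23 and 0.11, and over convergent pairs 0.067, 0.10 and 0.029. Over 2010 same-strand pairs whose numbers lie 2 apart, with another number between them, they were 0.080, 0.10 and 0.074. The orientations also differ in spacing, with median gaps of 518 bases in divergent and 224.5 in convergent pairs, whose part in these values was not tested. Both neighbours of the same gene were then compared for the 738 upstream genes that began a run of tandem genes and had a divergent neighbour on their other side. Their wild-type level had a Spearman correlation of 0.24 with the divergent and 0.076 with the tandem neighbour, and their log2 ratio 0.059 and 0.094. By the size of the difference, 378 (51.2%, interval 47.5% to 54.9%) were closer in wild-type level to the divergent neighbour and 360 to the tandem one. For the log2 ratio 364 were closer to the divergent neighbour and 374 to the tandem one. In 12 of these 738 cases the tandem pair had identical levels, which makes the tandem neighbour the closer one by construction. Without them the correlation with the tandem neighbour was 0.067 in wild type and 0.078 for the log2 ratio. At the other end, 810 genes ended a run and faced a convergent neighbour. The correlations were 0.096 with the convergent and 0.081 with the tandem neighbour in wild type, and 0.0497 and 0.147 for the log2 ratio. The ratio was closer to that of the convergent neighbour in 377 cases (46.5%, interval 43.1% to 50.05%) and to that of the tandem neighbour in 433. Here 8 of the 810 tandem pairs had identical levels and count towards the tandem neighbour in the same way. The counts of closer neighbours were not redone without identical pairs.

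**Figure D2:**
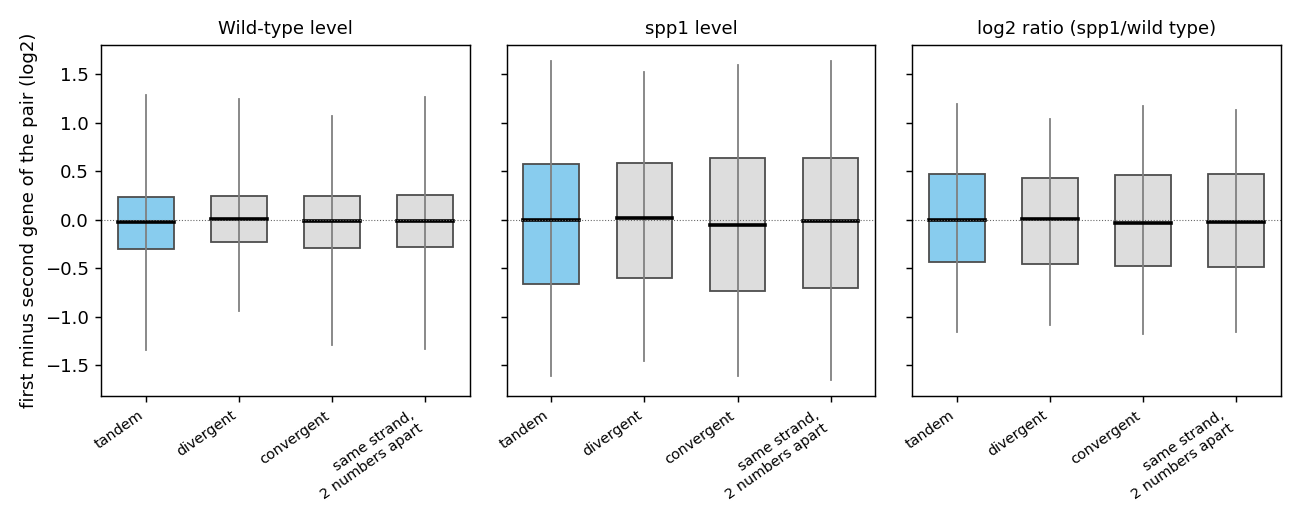
Differences within pairs (log2) for wild-type level, spp1 level and log2 ratio in tandem pairs (upstream minus downstream gene, blue) and, in grey, in divergent and convergent pairs (lower minus higher coordinate) and in same-strand genes 2 numbers apart (upstream minus downstream). Boxes give quartiles, thick lines medians and whiskers the middle 90%. All medians lie near 0, and the boxes are widest for the spp1 level.

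A small set of tandem pairs held exactly the same values in both genes. This was so for 28 of the 1867 tandem pairs (1.50%, interval 0.999% to 2.16%) in both libraries, for none of the 985 divergent pairs and for none of the 1054 convergent pairs. The upper limits of the exact binomial interval for a count of 0 are 0.374% and 0.349% in these groups. Over all 3906 neighbouring pairs the share was 0.717%. In 17 of the 28 pairs, 1 of the names has no annotated gene, and in 16 of those it is the downstream one. There were 24 pairs with an unannotated downstream name, so 16 of 24 shared their values with the gene before, while 1 of the 19 with an unannotated upstream name did. NOP58, which encodes a box C/D snoRNP protein, and YOR309C both had 2.801 in wild type and 1.09 in the spp1 strain. RPS9B, a gene of the small ribosomal subunit, and YBR190W both had 2.33 and 1.52, and NPL3, an RNA-binding protein gene, and YDR433W both had 1.76 and 1.01. The genes of such a pair are not separate measurements, and whether the authors' assignment of signal to genes made them so was not tested.

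The other 11 identical pairs have annotation for both genes. Of these, 3 overlap, among them YPT6, the gene of a Golgi Rab GTPase, and VPS63, by 320 bases (both 2.32 and 0.807), and 8 are separated by 56 to 724 bases. The closest of those is YOR302W, the upstream open reading frame whose peptide controls translation of CPA1, and CPA1 itself, an arginine synthesis gene, 56 bases apart (both 1.94 and 0.481). RTG1, a transcription factor gene of retrograde signalling (XV, 201985 to 202518), and HST1, a sirtuin gene (XV, 200368 to 201879), shared 2.16 and 1.08. RPL11B, of the large ribosomal subunit, and MRP13, of the mitochondrial ribosome, shared 2.22 and 1.11 across 240 bases. SPP381 and RIB7 (both 1.84 and 0.505), YPT35 and TRR2 (1.95 and 0.483), YAP7 and YOL029C (2.14 and 0.488), SLX8 and SPR6 (2.07 and 0.581) and KTD1 and DFP2 (1.79 and 0.356) complete the set. These genes start close to each other: the distance from coding start to coding start was 134 to 1429 bases in the 11 pairs with a median of 765, against a median of 1863.5 in all annotated tandem pairs. Closeness alone did not go with identity, since 580 tandem pairs had starts no farther apart than 1429 bases. A further 6 tandem pairs were within 1% of each other in both libraries without being identical, a tolerance set after the values were seen. They include ATP10 and CST9 (1.988 and 1.989 in wild type, 31 bases apart) and TFB3 and MFA1 (2.511 and 2.513, 399 bases apart). With the same tolerance there was 1 divergent pair, 1 convergent pair and 1 pair 2 numbers apart.

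Wider gaps between the genes went with larger differences in wild type, though weakly. The Spearman correlation of the gap with the size of the difference was 0.15 in wild type, 0.095 in the deletion strain and 0.057 for the log2 ratio, over 1805 annotated pairs with no overlap and unequal levels. The 1813 annotated pairs without overlap were cut into quartiles of the gap, at 24 to 283, 284 to 398, 399 to 599 and 601 to 13562 bases. They include the 231 pairs with another annotated gene between or across them, so a wide gap is not always an empty one. The gap comparison was not redone without these pairs. The median size of the wild-type difference was 0.23, 0.25, 0.26 and 0.41 (log2) from the shortest to the longest gaps, and the share of pairs over 2-fold apart in wild type was 8.35%, 9.96%, 16.5% and 23.0%. With its sign (upstream minus downstream) the median was -0.0051, -0.046, -0.066 and 0.031. In the widest quartile the upstream gene was thus higher more often, in 236 pairs against 215, with an interval of the median from -0.028 to 0.072. Genes with little mark were present at all gaps but more frequent in the widely spaced pairs. A downstream gene below the 10th percentile of wild-type level (1.09) was present in 23 pairs of the first quartile (5.05%), 22 of the next (4.87%), 39 of the one after (8.59%) and 74 of the last (16.4%). For upstream genes the counts were 27, 30, 57 and 65, or 5.93% to 14.4%. Among pairs with both genes at or above that level the contrast was smaller, with median differences of 0.20, 0.22, 0.21 and 0.25. Nearly all pairs over 2-fold apart in wild type held a gene below the 10th percentile, whatever the gap: 36 of 38, 41 of 45, 66 of 75 and 100 of 104 over the quartiles.

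The ratio also moved with the gap, in both genes of the pair. The median log2 ratio of upstream genes was -2.02 (interval -2.08 to -1.97) in the closest quartile and -1.85 (-1.93 to -1.79) in the widest, which is 24.7% and 27.8% of wild type. Downstream genes went from -2.01 (-2.08 to -1.95) to -1.87 (-1.97 to -1.80), with intervals that overlap. Pairs with a ribosomal protein gene, whose ratios are high, numbered 5 in the closest quartile and 33 in the widest. Without them the medians went from -2.02 to -1.89 upstream and from -2.01 to -1.92 downstream. Genes with little mark in wild type, more frequent at wide gaps, were kept in all these medians, and their part in the trend was not tested. Within pairs the upstream and downstream genes stayed close in the middle of the distribution, with a median difference of log2 ratio of 0.0084, -0.017, 0.0049 and 0.056 over the quartiles.

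**Figure D3:**
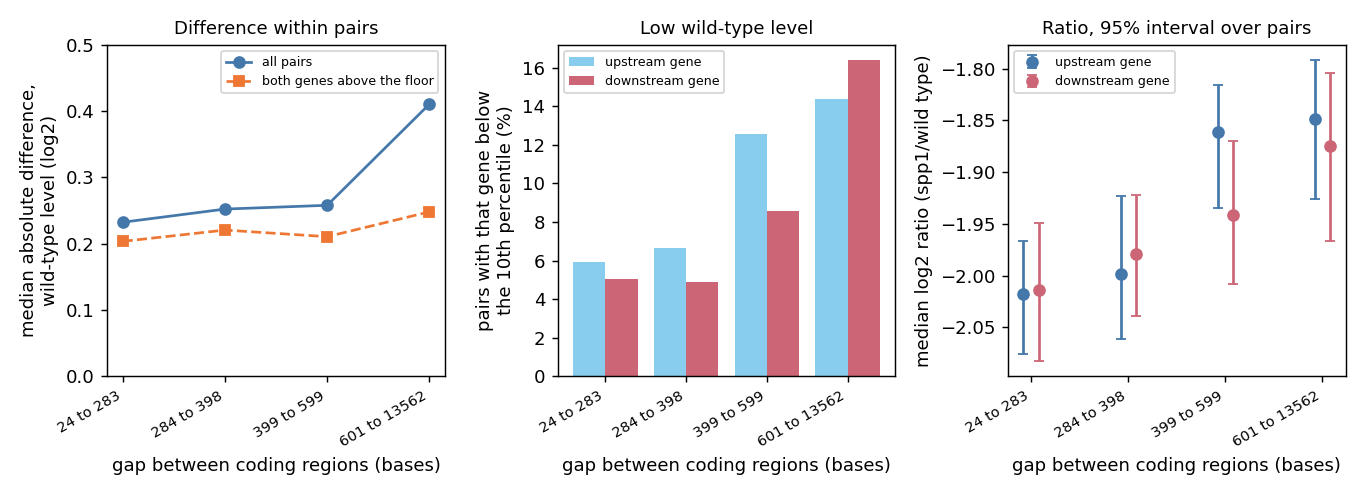
Tandem pairs in 4 classes of the gap between coding regions (x axis, bases). Left, the median absolute difference of wild-type level within pairs, for all pairs and for pairs whose genes both reach the 10th percentile of wild type (the floor); middle, the share of pairs whose upstream or downstream gene lies below it; right, the median log2 ratio with its 95% interval over pairs. Low genes take 16.4% of downstream places in the widest class and 5.05% in the closest.

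A low wild-type level was weakly shared within pairs. Most genes below the 10th percentile lay next to a gene above it, which the threshold alone implies. Of the 1867 pairs, 288 had 1 gene below the 10th percentile, 155 with the upstream and 133 with the downstream gene as the low one, and 31 had both. When the upstream gene was low, the downstream gene was low in 31 of 186 pairs (16.7%, interval 11.6% to 22.8%), and otherwise in 133 of 1681 (7.91%, 6.67% to 9.31%). The median wild-type level of the downstream gene after a low upstream gene was 1.89, and 69 of the 186 (37.1%) were at or above the median of all genes, against 911 of 1681 (54.2%) after other upstream genes. The reverse view was like it: upstream genes of low downstream genes had a median of 1.92, against 2.01 before other downstream genes. A loss to under 25% of wild type was shared in the same weak way. After an upstream gene under 25%, the downstream gene was under 25% in 437 of 848 pairs (51.5%, interval 48.1% to 54.9%), and otherwise in 444 of 1019 (43.6%, 40.5% to 46.7%). The 28 pairs with identical levels, whose genes agree by construction, were kept in the counts of this paragraph.

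The pairs with the widest contrast in wild type, among the 1548 whose genes both reach the 10th percentile, were picked by these values and are given as a description. TIF34, which encodes a subunit of the initiation factor eIF3 (XIII, 557481 to 558524), had 2.74 in wild type and 1.62 in the spp1 strain. NDE1, the gene of a mitochondrial external NADH dehydrogenase that follows it (XIII, 554793 to 556475), had 1.21 and 0.221. The upstream gene was thus 2.26-fold higher in wild type and 7.32-fold higher without Spp1. SEC62, of the protein translocation machinery of the endoplasmic reticulum, and EEB1, an acyltransferase gene of ethyl ester synthesis, had 2.56 and 1.23 in wild type and 1.02 and 0.235 in the spp1 strain. NUD1, of the mitotic exit network, and ALD4, a mitochondrial aldehyde dehydrogenase gene, had 2.49 and 1.18, then 0.641 and 0.192. CDC42, the gene of a GTPase of cell polarity, and ECM22, which encodes a sterol regulatory factor, had 2.31 and 1.12, then 0.776 and 0.196. GBP2 and YCL012C (2.14-fold) and ATG18 and ROG3 (2.10-fold) were the other pairs with the upstream gene far higher.

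The opposite order was as steep. ATG33, a mitophagy gene (XII, 840321 to 840914), had 1.30 in wild type and RSC2, a subunit gene of the RSC remodeller (XII, 841331 to 844000), had 2.89, and in the deletion strain they had 0.225 and 1.253. PMA1, the gene of the plasma membrane proton pump and one of the most transcribed in glucose, had 1.12, below LEU1, an enzyme gene of leucine synthesis, with 2.38. Their levels in the deletion strain were 0.440 and 0.595. MIG3, a repressor gene, and GAL83, which encodes a Snf1 kinase subunit, had 1.11 and 2.59, then 0.267 and 0.455. TOS2 and MRPL9, a mitochondrial ribosomal protein gene, had 1.13 and 2.38, then 0.191 and 0.938. PRY1 and SCP160 were 2.33-fold apart and CIN2 and IQG1 2.17-fold apart in wild type. In all 12 of these pairs the gene that was higher in wild type was also higher in the deletion strain, as in 98.1% of tandem pairs over 2-fold apart. The pair at the middle of the wild-type differences was VPS55 and POL32, with 1.83 and 1.85.

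The widest contrasts in the ratio lay at ribosomal protein genes. RPL27A (VIII, 126521 to 127492) had 2.11 in wild type and 1.74 in the spp1 strain, or 82.3%, while DIA4, a mitochondrial seryl-tRNA synthetase gene 287 bases downstream, had 2.01 and 0.307, or 15.2%. RPS13 lay at 67.2% and RRG1, required for the mitochondrial genome, at 12.8% across a gap of 234 bases, with nearly equal wild-type levels of 2.07 and 2.03. RPL36A and ICY1 lay at 66.2% and 16.01%, and RPL24A and the a-agglutinin gene AGA2 at 56.9% and 15.2%. In the other order, the aminopeptidase gene APE2 (XI, 154991 to 158232) had 1.51 and 0.224, or 14.8%, and RPS27A, 380 bases downstream, had 2.22 and 1.75, or 78.9%. MAK10 and RPL12A lay at 13.9% and 58.2%, and YBL086C and RPL23A at 15.3% and 55.2%. Without a ribosomal protein gene, RPD3, the histone deacetylase gene, lay at 44.9% and AAD14 at 11.5%, BRE5, a deubiquitination cofactor gene, at 60.6% and LYS9, of lysine synthesis, at 15.8%, and ATG14 at 16.2% and the V-ATPase gene VMA2 at 63.2%. SPP1 and UME1, also among the 12 widest, are described with the COMPASS genes. At the middle of the ratio differences were TFB3 and MFA1, both at 26.9%, which are among the nearly identical pairs given above.

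All tandem pairs with 1 ribosomal protein gene were then pooled, 44 with it upstream and 35 with it downstream. That such genes keep more of the mark without Spp1 was known from these data, so their own ratios are background here, and the neighbours are the point. When the ribosomal protein gene was upstream, it had a median ratio of 59.1% of wild type, and the gene downstream of it 25.9% (log2 -1.95, interval -2.13 to -1.68). When it was downstream, it had 61.4%, and the gene upstream of it 26.6% (log2 -1.91, interval -2.14 to -1.64). The median of all genes outside YDL was 26.2%, so neighbours on either side lay near it. Of the downstream neighbours 3 of 44 (6.82%) were at or above 50% of wild type, 2 of them by sharing identical values with the ribosomal protein gene. Of the upstream neighbours 1 of 35 was (2.86%). It was YBR190W, before RPL21A, and it shared its values with the ribosomal protein gene RPS9B. Among all genes outside YDL other than ribosomal protein genes the share was 3.36%. The ratio of the ribosomal protein gene was above that of its neighbour in all 35 pairs with it downstream and in 40 of 44 with it upstream. The exceptions were RPS9B and RPL11B, with identical neighbours, RPS15, at 60.6% before NOP12 at 65.8%, and RPL15B, at 23.9% like ADE17 after it. In wild type the neighbours had medians of 2.09 beside 2.22 for the 44 pairs and 2.06 beside 2.30 for the 35. The ribosomal protein gene was the higher one in wild type in 28 of 44 and 28 of 35 pairs. The median within-pair difference (log2, upstream minus downstream) was 0.068 (interval 0 to 0.13) with it upstream and -0.22 (-0.40 to -0.060) with it downstream.

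**Figure D4:**
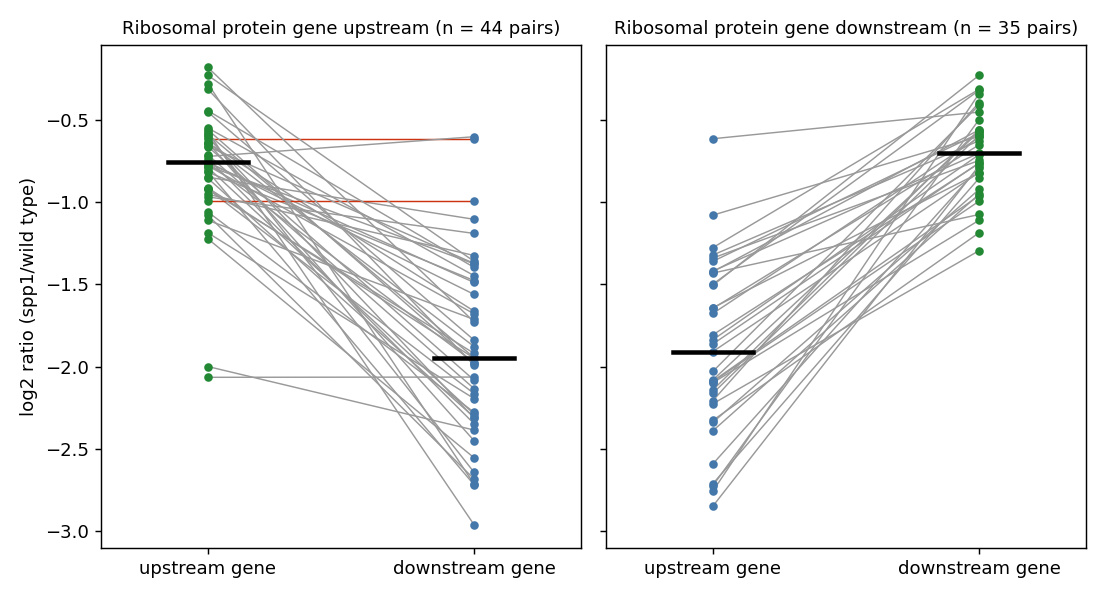
Log2 ratio of spp1 to wild type (y axis) for tandem pairs with 1 ribosomal protein gene (green) and a neighbour that is none (blue), with the ribosomal protein gene upstream (left, 44 pairs) or downstream (right, 35 pairs). Grey lines join the genes of a pair, red lines those with identical levels, and black bars are medians. The neighbours' medians, -1.95 and -1.91, lie far below those of the ribosomal protein genes on either side.

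Both genes encode ribosomal proteins in the tandem pair RPL18B and RPS19B. They had 2.20 and 2.46 in wild type and 0.794 and 1.63 in the spp1 strain, so the upstream gene kept 36.1% and the downstream one 66.0%. Many yeast ribosomal protein genes are present as near-identical copies. Reads of such copies can be split between them, and the sources used here give no rule for this. Of the 1867 tandem pairs, 180 had 1 gene that kept at least 50%, 92 with the upstream and 88 with the downstream gene, and in 6 both did. A small count follows from the share of all genes outside YDL under 50%, which was 94.6%. Of the 6 pairs, 3 had identical values. The others, chosen after their values were seen, were YBR190W and RPL21A, RPS15 and NOP12, and MRP13 and GCD2, and of these YBR190W and MRP13 carry the same values as RPS9B and RPL11B.

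Tandem genes often follow each other in runs. The 1867 pairs formed 1062 runs, 617 of 2 genes and 445 of more, with 92 runs of 5 or more genes. Along these runs, the 1062 genes at the start had a median wild-type level of 1.98 (interval 1.96 to 2.01), the 805 inner genes 2.01 (1.98 to 2.05) and the 1062 at the end 2.05 (2.02 to 2.07). Levels in the deletion strain were 0.496, 0.478 and 0.494, and log2 ratios -1.92 (-1.96 to -1.88), -1.97 (-2.01 to -1.92) and -1.95 (-2.0004 to -1.91). The wild-type medians thus differ by a few percent in favour of genes at the end. Those at the start were split by what precedes them. With a divergent gene before them, 738 had a wild-type median of 2.01 and a log2 ratio of -1.90 (-1.95 to -1.84). With no gene of a consecutive plain number before them in the table, 324 had 1.92 (1.87 to 1.97) and -1.96. Both medians lay below the 2.05 of genes at the end, that of the 324 by more.

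The longest run had 11 genes on chromosome XV and is shown as an example. In order of transcription, the levels in wild type were 1.66 for PIN2, a prion-inducing protein gene, and the same for YOR105W, which overlaps it and shares its values. VAM3, the vacuolar syntaxin gene, had 1.87, and RGS2, a regulator of G protein signalling, had 0.791, the lowest of the run. LEU9, an isopropylmalate synthase gene, had 2.01, and INP53, a phosphoinositide phosphatase gene, 2.44, the highest. TFC7, of the RNA polymerase III factor TFIIIC, had 2.13, YOR111W 1.93, CEX1 1.793, the transcription factor gene AZF1 1.795 and CIM1 1.73. In the deletion strain the levels ran from 0.272 for CIM1 to 0.719 for LEU9. The share of wild type that remained was highest in RGS2 (37.1%), where wild-type level was lowest, followed by LEU9 (35.8%) and INP53 (27.1%). It was lowest in CIM1 (15.7%) and YOR111W (17.8%), and 5 of the 11 genes lay under 25%.

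**Figure D5:**
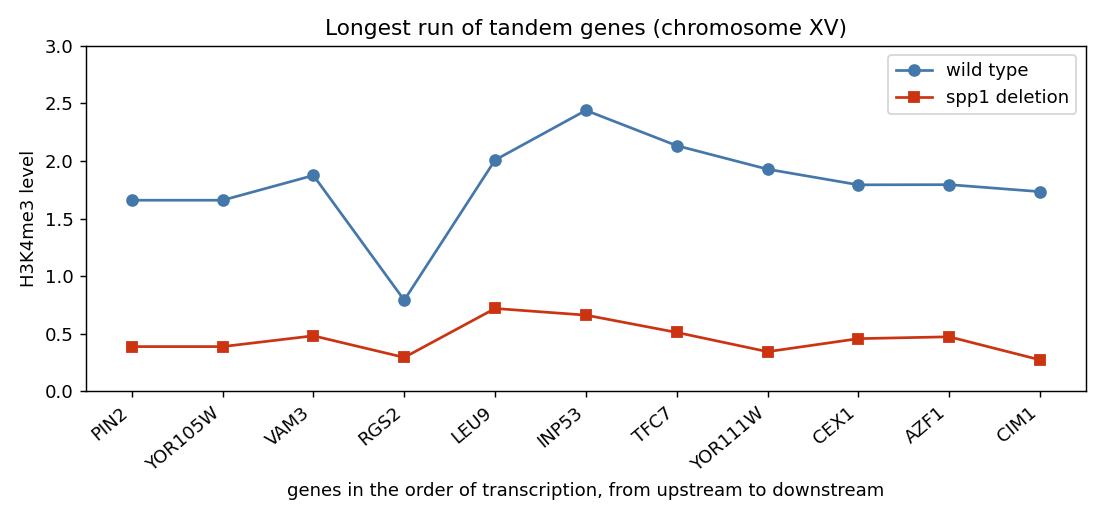
H3K4me3 level (y axis, linear) of the 11 genes of the longest tandem run, in order of transcription, in wild type (blue) and the spp1 deletion strain (red). RGS2 stands out as the lowest gene in wild type at 0.791, between VAM3 at 1.87 and LEU9 at 2.01.

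Pairs at the extremes of spacing were also looked at by name, among pairs whose genes both reach the 10th percentile. YDR157W and HOM2, an aspartate pathway gene, 24 bases apart, had 1.91 and 2.03 in wild type and 0.705 and 0.530 in the spp1 strain. The values of YDR157W are those of RPA14, which it overlaps, so they are not a separate measurement. ATP10, an ATP synthase assembly gene, and CST9, a gene of meiotic recombination, 31 bases apart, both lay at 20.9% of wild type. SWC7, of the SWR1 complex, and IKI3, of Elongator, 91 bases apart, had 1.92 and 1.93, then 0.408 and 0.413. TRM9, a tRNA methyltransferase gene, and UBX2, 84 bases apart, had 2.30 and 1.95, then 0.555 and 0.535. The others of the 6 closest pairs are those of CPA1 and HST1 above. At the other end, CUR1 and KRE6, of cell wall glucan synthesis, 13562 bases apart, lay at 20.3% and 36.3%. CPP2 and GCD6, a subunit gene of eIF2B, 13425 bases apart, lay at 37.4% and 32.9%. MFM1 and GRX5 lay at 14.7% and 21.0%, and ECM22 and ADY4 at 17.6% and 15.1%. Pairs with another annotated gene between them were not left out of this choice.

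Relative length was weakly related to the order within a pair. Over the 1824 annotated pairs the Spearman correlation between the log2 ratio of lengths and the log2 ratio of wild-type levels was 0.11, and with the difference of the strains' log2 ratio it was -0.062. In the fifth of pairs with the upstream gene shortest relative to its neighbour, the median wild-type difference was -0.069 (log2, interval -0.12 to -0.012), and in the fifth with it longest, 0.028 (-0.0036 to 0.10).

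Genes of COMPASS itself occurred in 5 tandem pairs. GIP3, a gene for a Glc7-interacting protein, precedes SPP1 and had levels of 0.772 and 0.214, or 27.8%. SPP1 (XVI, 291366 to 292427) had 1.89 and 0.0982, or 5.21%, in the strain where it is replaced. UME1 follows 314 bases downstream and had 2.20 and 0.406, or 18.4%. SET1, the methyltransferase gene, and MSH1, of mitochondrial DNA repair, had 2.10 and 2.52, then 0.437 and 0.549, which left both near the same share, 20.8% and 21.8%. SWD3 and ECM31 lay at 22.001% and 18.2%, and NUP60 and SWD1 at 31.2% and 18.5%. Leaving out the pairs with SPP1 left the within-pair median of the wild-type level at -0.019 and that of the ratio at 0.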

How the data were processed

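H3K4me3 was measured by chromatin immunoprecipitation of nucleosomes released with micrococcal nuclease, per the labels' protocols. The authors deposited a normalised H3K4me3 signal per gene for each strain, per the file headers, and the series text ties comparability to the spike-in. Bowtie2, SAMtools and bedtools with builds sacCer3 and ASM294v2 are named in the submitters' processing notes. The sources used here do not say which part of a gene was measured, how overlapping or shared signal was assigned, or which versions were used. Values were taken as linear, with no pseudocount.

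The table held 5219 genes after 3 lines had been emptied for this work, so a missing number can split a run. Systematic names were matched to RefSeq genes of assembly R64 (103 without a match), which gave symbols and 1-based coordinates. Its lengths are mostly coding lengths (96.3% of protein-coding genes are multiples of 3). No genome or promoter sequence was used here, so the planned promoter motif search was not made.

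Pairs were formed, and differences, medians, shares and correlations computed, with Python 3.11.15, pandas 2.3.3 and scipy 1.17.1. Intervals of medians come from binomial order statistics and those of shares are exact binomial (Clopper-Pearson). The functions were tested on simulated levels with known offsets. The pair rule, gene lists and rules for named pairs were chosen with earlier results of these data known. Named pairs are the 6 highest and lowest differences in wild-type level and in ratio, the 6 smallest and 4 largest gaps (these under the floor on low levels, the 10th percentile of wild-type level), the longest run, pairs of 2 ribosomal protein genes, those with COMPASS genes and the middle pairs. The middle pairs have unequal levels and lie at or near the median over all tandem pairs, those with equal levels included. Other pairs were named after their values were seen. Some of the named pairs are not reported here.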

Additional observations from a re-analysis of the deposited data

How the results depend on the processing

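The median differences between upstream and downstream genes, the shares with a higher upstream gene in wild type and in the ratio, and the correlation of the ratio were recomputed with a pseudocount of 0.201, the floor on low wild-type levels, a background (each library's 1st percentile) taken off, disjoint pairs, pairs of like length, pairs with nothing else annotated, arm YDL included, and without ribosomal protein genes, genes of identical levels or SPP1. The median differences were also taken as means, and the correlation as Pearson's. The share for the spp1 level, the counts over 2-fold, the correlations of levels, and the gap and ribosomal protein comparisons were not recomputed in all these settings. The median wild-type difference ranged from -0.035 to -0.0055, that of the spp1 level from -0.019 to 0 and that of the ratio from 0 to 0.025, all within the interval of the reported value. The interval of the wild-type median reached 0 with the floor (-0.038 to 0) and in disjoint pairs (-0.040 to 0), and included it in pairs of like length (-0.080 to 0.035). The share with a higher upstream gene ranged from 45.8% to 48.1% in wild type and from 49.0% to 51.3% for the ratio. The correlation of the ratio between neighbours was 0.042 in the 374 pairs of like length and 0.066 to 0.11 in the 10 other settings; the cause was not tested. No paired analysis was possible because each strain has 1 library. Depth is unknown, and with 1 library per strain the spread between cultures cannot be given.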
